A study of Mus musculus with 3 samples.

Results

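The cells described here were 509 mouse bone marrow cells with the transcripts of small pre-B and immature B cells, of 22376 cells kept from 3 single-cell libraries. They were chosen on measured UMI counts (a UMI is a tag that counts 1 captured transcript). A member held at least 1 UMI each of Cd79a, Cd79b and Vpreb3, at most 4 UMIs of Vpreb1, Vpreb2 and Igll1 together, and 0 UMIs of Ighd and Fcer2a. The gate held 127 of 7538 kept cells in fusion library 1, 249 of 7625 in the wild-type library and 133 of 7213 in fusion library 2, and values below follow that order where 3 are given together. All libraries came from male mice aged 6 weeks. The fusion genotype, Ep300-Znf384-V5-HA, is a knock-in of a fusion of Ep300, a histone acetyltransferase, to Znf384, a zinc finger DNA-binding protein, with V5 and HA tags; the comparison asks what this fusion does to late B lineage precursors. The other genotype is wild type, with 1 library. For each library 5000 live marrow cells and 5000 live lineage-negative cells were sorted after red cell lysis and pooled, so shares of cells below are shares of that mixture. The labels name neither the cell type that expresses the fusion, nor the animals, nor whether the 2 fusion libraries came from separate ones. A p-value here therefore rests on spread between these libraries, which is possibly technical. In the edgeR tests that spread is mostly pooled over genes and only in small part that of the gene itself. Genotype and any other trait of the 1 wild-type library cannot be told apart.

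B cells are built in the bone marrow in steps. Pro-B cells rearrange the immunoglobulin heavy chain gene, and large pre-B cells pair the new heavy chain with a surrogate light chain (Vpreb1, Vpreb2 and Igll1), signal through this pre-B cell receptor and divide. Small pre-B cells then stop dividing, switch the surrogate light chain off, turn the recombinase genes Rag1 and Rag2 on again and rearrange the kappa or lambda light chain. A cell that succeeds shows IgM on its surface as an immature B cell, gains Ms4a1 (CD20) and MHC class II, and leaves for the spleen. ZNF384 fusions are found in human acute leukaemias of B-cell precursors and of mixed phenotype.

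Members were shallow cells. Their median depth was 2770, 2723 and 2783 UMIs, against 7621, 7606 and 10518 UMIs over all kept cells, and a median of 1391, 1344 and 1396 genes was detected in a member. Member UMIs summed to 588950, 1201592 and 589887. Kept cells of any pair of libraries shared 13 to 17 barcodes, and members shared 0. Predicted doublets, which were not removed, were 8, 12 and 6 of the members. Expression below is in CPM (UMI counts scaled to a common total per library, over the summed cells), scaled by TMM where it comes from the test and plain where said. The parent genes of the fusion gave 138, 136 and 63.9 CPM for Ep300 and 43.7, 16.2 and 20.7 CPM for Zfp384, the mouse Znf384 gene, and neither passed the test (edgeR adjusted p = 0.916 and 0.709). A 3' tag in these genes does not show the fusion transcript, so these values check no label.

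The gate genes themselves were at similar levels: Vpreb3 at 2747, 2056 and 2975 CPM and Cd79b at 1466, 1288 and 1597 CPM. The surrogate light chain edge of the gate was sparse and the others were not. A member with exactly 4 surrogate light chain UMIs was seen 0, 1 and 2 times, and cells with 5 that otherwise met the rule were seen 1, 2 and 0 times, whereas 116, 229 and 118 members held none. Cells left out for 1 UMI of Ighd or Fcer2a numbered 28, 76 and 29, and asking for 2 UMIs each of Cd79a, Cd79b and Vpreb3 would have left 115, 223 and 123 members. The pre-B and immature B markers that the gate did not use were both present: Rag1 gave a UMI in 59.1%, 36.9% and 48.9% of members and Ms4a1 in 52.0%, 34.1% and 50.4%. In T and NK cells of the same libraries, which should lack both (chosen by at least 2 UMIs of the Cd3 genes and 0 of Cd79a; median depths 2924, 5036 and 4826.5 UMIs), Rag1 gave a UMI in 4.76%, 2.65% and 1.43% and Ms4a1 in 1.19%, 2.65% and 1.43%. Of T and NK genes, Cd3e was at 0 in the members of all 3 libraries, and the list of 15 summed to 39.1, 54.9 and 76.3 plain CPM, against 4568 to 5680 in the T and NK gate.

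The name "small" held for most members and not for all. A dividing cell was taken as one with at least 10 of 34 genes of G2 and mitosis detected, and this found 22, 61 and 29 members, or 17.3%, 24.5% and 21.8%. The mean share in the fusion libraries was 19.6% ± 3.17 (SD, n = 2), 0.799 times the wild-type share. The 95% Clopper-Pearson intervals of both fusion libraries overlapped that of wild type. The exact 2-sided permutation test over the 3 libraries gave p = 0.667. No difference in the share of dividing cells was shown, and 2 libraries against 1 cannot exclude a difference. Dividing members had median depths of 7371, 6744 and 7120 UMIs, against 2595, 2475 and 2604 UMIs in resting ones, and so carried 41.4%, 50.6% and 42.4% of all member UMIs. A further 2, 2 and 1 members were plasma cells by Jchain, which joins secreted antibody units: they held 340 to 2492 Jchain UMIs each, against at most 1 in any other member. The remaining 103, 186 and 103 members are called resting. Because dividing and plasma cells weigh so heavily in sums, gene results are given for all members and again for resting ones. This split was made after the data were seen.

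**Figure D1:**
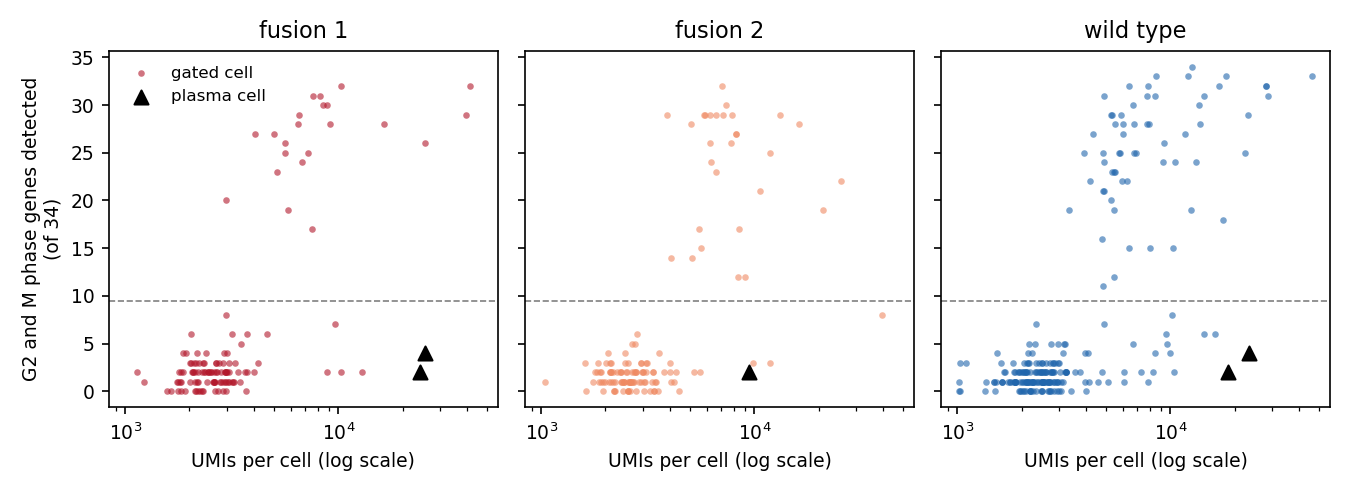
Each point is a member, by its UMIs (x axis, log scale) and by how many of 34 G2 and mitosis genes it has detected (y axis), with 1 panel per library; the dashed line marks the limit of 10 genes and triangles mark plasma cells. The 22, 61 and 29 dividing members stand at higher UMI counts than the 103, 186 and 103 resting ones, and few cells lie near the line (7, 16 and 8 with 5 to 14 genes).

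The gated population was less frequent in each fusion library than in wild type. They were 1.68% of kept cells (95% interval 1.406 to 2.001) in fusion library 1, 3.27% (2.88 to 3.69) in wild type and 1.84% (1.55 to 2.18) in fusion library 2. Both fusion shares lay below the wild-type one, with intervals that did not overlap it, and their mean of 1.76% ± 0.112 (SD, n = 2) was 0.540 times the wild-type share. The exact 2-sided permutation test over the 3 libraries cannot go below p = 0.333, and gave p = 0.333. Resting members alone gave 0.573 times the wild-type share. The later B lineage was lower still: cells of the mature B gate (Ighd or Fcer2a present) were 0.903% ± 0.114 (SD, n = 2) of kept cells in the fusion libraries and 2.82% in wild type, a ratio of 0.320. The pro-B gate (at least 5 surrogate light chain UMIs) held 26, 58 and 32 cells, a ratio of 0.518. Its wild-type interval (0.578% to 0.982%) lay above that of fusion library 1 (0.225% to 0.505%). It overlapped that of fusion library 2 (0.304% to 0.626%). Within the B lineage, taken as the 3 gates together, members were 59.1% (95% interval 52.2 to 65.7), 47.7% (43.3 to 52.1) and 56.4% (49.8 to 62.8) of cells. The wild-type interval lay just below that of fusion library 1 and overlapped that of fusion library 2, while the mature gate held 41.2% in wild type and a mean of 29.5% in the fusion libraries, with both fusion intervals below. Cells with UMIs of other cell types' genes bear on these shares. The genes used were Elane, Mpo, S100a8, Ngp, Ltf, Camp, Car1, Siglech and Ccr9. In 89, 231 and 109 members at least 1 of these genes had more than 1 UMI, mostly the neutrophil gene S100a8. With only the members cleared of such cells, and kept cells and the other gates as before, the ratio of member shares of kept cells was 1.77, with overlapping intervals, and of B lineage shares 3.97. This filter itself took out 231 of 249 wild-type members against 89 of 127 and 109 of 133, so these ratios do not show what the lower share rests on, and the part of such UMIs in the result was not tested.

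**Figure D2:**
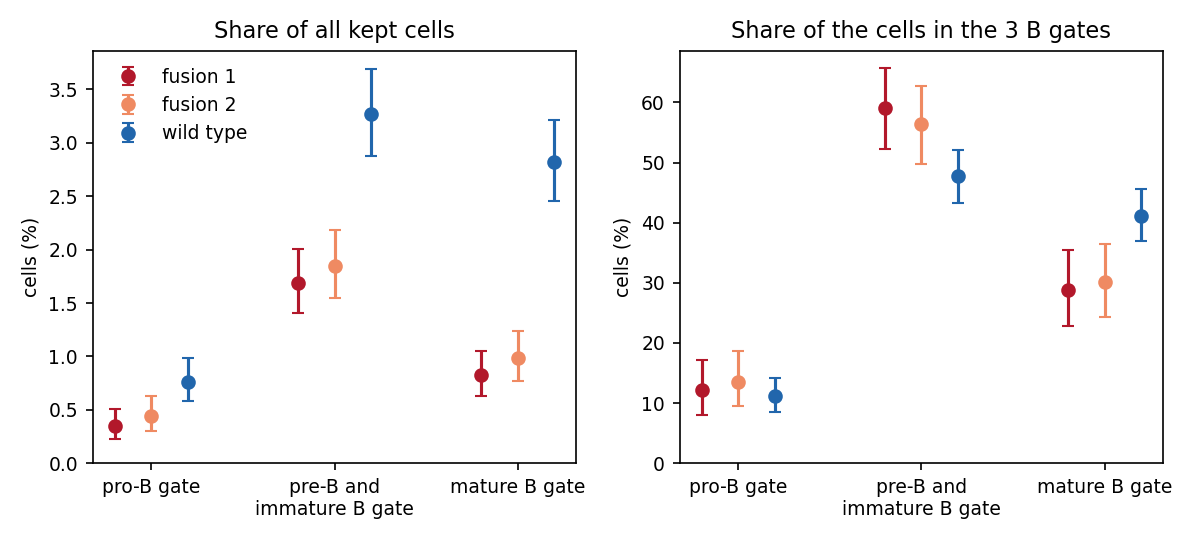
Share of each gate (x axis) among kept cells (left panel, percent) and among the cells of the 3 B lineage gates (right panel, percent), 1 point per library with its 95% Clopper-Pearson interval. Members were 1.68% and 1.84% of kept cells in the fusion libraries and 3.27% in wild type; among B lineage cells they were 59.1% and 56.4% against 47.7%.

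In all members, 76 of 7494 genes tested (1.01%) passed an adjusted p of 0.05 between genotypes by the edgeR quasi-likelihood test, 31 higher (0.414%) and 45 lower (0.600%) in the fusion libraries. Among the genes that rose, Cd36, Socs2, Rilpl2, Rhoq and Ltb were each found in 21 or more members of each fusion library, with at most 41.4% of their UMIs there in 5 cells. Iglc2, Fgd2, Mmp8, Txndc5 and Jchain also rose, but had most of their UMIs in 5 cells in 1 fusion library or both. The leading genes that fell belong to neutrophils, monocytes and basophils, and for Mcpt8, Fn1 and Fcnb 95.2% or more of the wild-type UMIs lay in 5 cells. In resting members 54 of 5871 genes (0.920%) passed, 12 higher (0.204%) and 42 lower (0.715%), and in dividing members 24 of 4817 (0.498%), 6 higher (0.125%) and 18 lower (0.374%). Of the 76 genes, 38 were also called in resting members and 19 in dividing ones, and 13 of the 54 resting calls were among the 24 dividing calls; these sets share libraries and, for the first, cells. The count is fragile: with 1 residual degree of freedom, 0 genes passed with DESeq2's size factors in edgeR (306 at an unadjusted p under 0.05, against 529 in the fit above) or without a filter on low counts (432), and 4 passed with DESeq2.

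**Figure D3:**
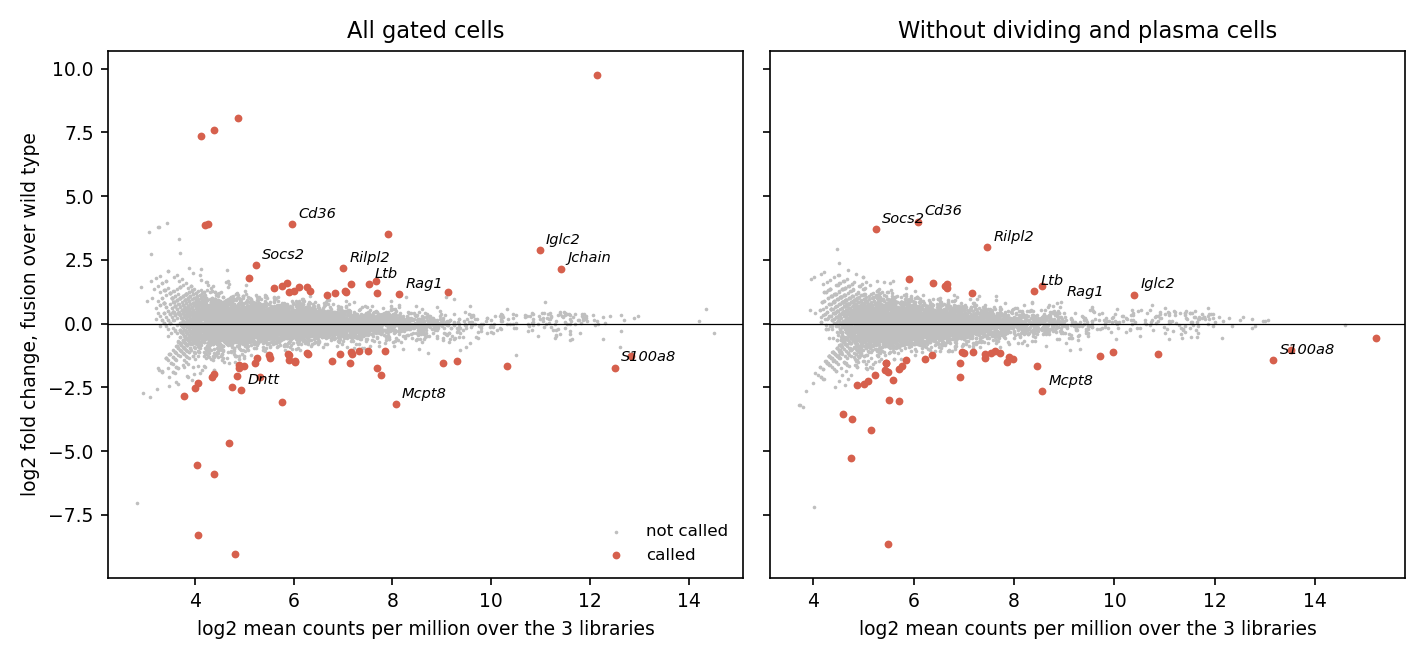
Log2 fold change, fusion over wild type (y axis), against log2 mean CPM (x axis) for every gene tested, in all members (left) and without dividing and plasma cells (right); genes called by edgeR at an adjusted p of 0.05 are red and the others grey. Cd36 and Rilpl2 are red on the upper side of both panels, S100a8 and Mcpt8 are red on the lower side of both, and Dntt and Jchain are red on the left only.

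Cd36, a scavenger receptor that takes up fatty acids and lipoproteins, was at 89.1 CPM in fusion library 1, 5.97 in wild type and 93.3 in fusion library 2. Both fusion libraries stood far above wild type and close to each other, a log2 change of 3.90 (SE 0.44, edgeR adjusted p = 1.9e-10). The counts behind this were 51, 7 and 54 UMIs. A Cd36 UMI was found in 23.6% of members in fusion library 1 (95% interval 16.5 to 32.0), 2.81% in wild type (1.14 to 5.71) and 24.8% in fusion library 2 (17.7 to 33.0), and no single member held more than 7 UMIs. Among T and NK cells the shares were 2.38% of 84 cells, 0 of 151 and 0 of 70 at the depths given above. With every cell thinned to 2000 UMIs, members gave 13.5%, 1.42% and 13.4%. The change held in both states of the members. Resting members had 107, 5.84 and 90.4 CPM; the wild-type value rests on 3 UMIs, and the plain ratio of the fusion libraries together to wild type was 17.3 (95% counting interval 5.65 to 86.5). Dividing members had 85.4, 7.22 and 113 CPM (log2 change 3.71, SE 0.66, edgeR adjusted p = 6.9e-06). DESeq2 also called Cd36 (adjusted p = 0.00917).

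Rilpl2, which binds Rab proteins and acts in protein transport at the cilium, was at 182, 38.4 and 166 CPM, again with both fusion libraries above wild type (log2 change 2.17, SE 0.32, edgeR adjusted p = 8.2e-07). A UMI was found in 44.9%, 10.0% and 47.4% of members and in 28.6%, 23.2% and 22.9% of T and NK cells, which were deeper in wild type and fusion library 2. Thinned to 2000 UMIs the shares were 30.6%, 5.21% and 36.1% of members and 13.7%, 10.3% and 7.14% of T and NK cells. As point values, fusion members lay above T and NK cells of their library, and wild-type members lay below theirs. The wild-type intervals overlapped (2.63 to 9.14 and 5.87 to 16.4). Whether members differ from T and NK cells was not tested in any library. The difference was wider in resting members, at 287, 31.1 and 213 CPM (log2 change 2.99, SE 0.39, edgeR adjusted p = 2.8e-11), than in dividing ones, at 85.4, 32.5 and 113 CPM, which did not pass (adjusted p = 0.295); whether these states differ was not tested. DESeq2 did not call Rilpl2 (adjusted p = 0.0914).

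The zinc fingers of ZNF384 are known to bind runs of A. The bases just before the start sites of both genes are shown for that reason, as given by RefSeq (GRCm38.p6), 5′ to 3′ on the gene's strand, with runs of 6 or more A or T in capitals; for Rilpl2 the 131 bases inside an annotated exon are left out. Cd36 spans chr5:17781690-17888801 and Rilpl2 chr5:124463265-124478366 on the minus strand in the GENCODE annotation of GRCm38. The Cd36 stretch is chr5:17835897-17836146 (minus strand), which lies inside that span and overlaps no annotated exon, and the Rilpl2 stretch is chr5:124478367-124478485 (minus strand).
Cd36: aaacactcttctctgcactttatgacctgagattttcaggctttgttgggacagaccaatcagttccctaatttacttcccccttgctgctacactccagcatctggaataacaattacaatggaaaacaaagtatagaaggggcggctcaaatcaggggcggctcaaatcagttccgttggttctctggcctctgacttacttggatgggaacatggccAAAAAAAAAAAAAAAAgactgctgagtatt
Rilpl2: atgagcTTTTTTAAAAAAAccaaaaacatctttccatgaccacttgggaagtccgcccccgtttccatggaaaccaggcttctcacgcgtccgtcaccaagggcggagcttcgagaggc
The Cd36 stretch held 1 run, of 16 A. The Rilpl2 stretch held 1 run of T and 1 of A, the longer of 7 bases. Of 32851 promoters in the same RefSeq table, 5805 (17.7%) held AAAAAA on either strand (AAAAAA or TTTTTT as printed) in the 250 bases before the start. A match is a description of these letters and not a binding site, and no binding was measured here.

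Socs2, an inhibitor of cytokine signalling through JAK and STAT proteins, was at 52.4, 10.2 and 50.1 CPM, from 30, 12 and 29 UMIs, with the fusion libraries together above wild type (log2 change 2.31, SE 0.44, edgeR adjusted p = 0.000392). In resting members it was at 51.8, 3.89 and 58.1 CPM. The wild-type value there rests on 2 UMIs, and the plain ratio was 14.6 (95% counting interval 3.72 to 125). Ltb, the membrane anchor of the lymphotoxin heterotrimer, was at 224, 80.2 and 245 CPM (log2 change 1.55, SE 0.30, edgeR adjusted p = 0.000392) and in resting members at 422, 173 and 420 CPM (log2 change 1.28, edgeR adjusted p = 0.0171). T and NK cells hold Ltb at 541, 371 and 413 plain CPM, so there too wild type was lowest, and Ltb over all members was below T cells in all 3 libraries. These genes did not pass with DESeq2.

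Further genes rose. Rhoq, a small GTPase, was at 82.1, 24.7 and 67.4 CPM (log2 change 1.59, SE 0.35, edgeR adjusted p = 0.00289). Itpkb, a kinase of inositol trisphosphate that tunes calcium and PI3K signals downstream of the antigen receptor, was at 99.6, 32.4 and 74.3 CPM (log2 change 1.42, SE 0.33, edgeR adjusted p = 0.00833). Fgd2, an exchange factor for Cdc42, was at 41.9, 12.8 and 48.4 CPM (log2 change 1.81, SE 0.44, edgeR adjusted p = 0.0147). These 3 genes also passed in resting members, and each was found in more than 1 in 10 fusion members. Klf3, a zinc finger repressor of transcription, was at 110, 35.8 and 84.7 CPM, and Maml3, a coactivator of Notch, at 50.7, 23.0 and 70.8 CPM. Both passed in all members (edgeR adjusted p = 0.00556 and 0.0217) but not in resting ones (0.103 and 0.131). Cd180, a Toll-like receptor relative of B cells, was at 94.3, 40.9 and 105 CPM and passed in all members (edgeR adjusted p = 0.0156). In resting members Cyb5a, a cytochrome, was at 138, 44.8 and 123 CPM and St6gal1, the sialyltransferase that makes the ligand of CD22, at 149, 75.9 and 203 CPM, and both rose (edgeR adjusted p = 0.00839 and 0.0342).

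Txndc5, a protein disulphide isomerase of secretory cells, was called in all members at 253, 62.3 and 116 CPM, but 75.2% of its UMIs in fusion library 1 lay in 5 cells. In resting members it was at 100.2, 75.9 and 132 CPM and did not pass (edgeR adjusted p = 0.769), and without fusion library 1 the log2 change over all members was 0.89. Mmp8, a neutrophil collagenase, was called higher at 222, 82.7 and 308 CPM, with 87.4%, 78.4% and 95.5% of its UMIs in 5 members of each library. T and NK cells held it at 1191, 423 and 429 plain CPM.

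The genes that fell most were of other cell types. Mcpt8, a basophil protease, was at 5.24, 657 and 142 CPM (log2 change -3.16, SE 0.38, edgeR adjusted p = 1.4e-09); 1 wild-type member held 51.4% of the wild-type UMIs and 1 member held 95.1% of those of fusion library 2. Without fusion library 1 the log2 change was -2.21, and without fusion library 2 it was -6.93. In T and NK cells Mcpt8 was at 7.06, 914 and 2.02 plain CPM. Fn1 (fibronectin) and Fcnb (ficolin B, of myeloid cells) were at 1.75, 60.5 and 0 CPM and at 5.24, 71.6 and 0 CPM. All 71 wild-type UMIs of Fn1 came from 5 cells and 95.2% of the 84 of Fcnb from 5 cells. The plain ratios of wild type to the fusion libraries were 69.7 (95% counting interval 12.1 to 2789.5) and 27.5 (9.08 to 136). These intervals treat UMIs as independent, so they do not cover the spread between the few cells that held them. S100a8, an abundant neutrophil calcium-binding protein, was at 2881, 10898 and 3703 CPM (log2 change -1.73, SE 0.27, edgeR adjusted p = 3.8e-06) and was also called by DESeq2 (adjusted p = 0.00951). Wfdc21, a neutrophil protease inhibitor, was at 96.1, 437 and 119 CPM in members and at 351, 853 and 236 plain CPM in T and NK cells. In both populations wild type was highest. Hist1h4c, a histone gene with near-identical copies, was the exception in its spread: it was at 1.75, 41.8 and 17.3 CPM (edgeR adjusted p = 0.0288), with a UMI in 34 of 249 wild-type members and no more than 4 in any. Emb (embigin), an adhesion protein, was at 15.7, 81.9 and 22.5 CPM, with 52.1% of its wild-type UMIs in 5 cells.

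By list, 8 of the 15 neutrophil genes tested fell and 1 (Mmp8) rose, with a median log2 change of -1.27 against 0.03 over all genes tested. Of the monocyte list 5 of 8 tested fell (Ccr2, F13a1, Fn1, Lyz2 and Mpeg1), and of the basophil list 2 of 6 (Cpa3 and Mcpt8). The 15 neutrophil genes summed to 12738, 30247 and 10254 plain CPM in members, and to 44749, 63535 and 25571 in T and NK cells. In dividing members the same sum was 1821, 22069 and 2697 plain CPM, and in the mature B gate 23266, 14952 and 9161, where wild type was not highest. Basophil genes summed to 57.7, 1456 and 834 plain CPM in members and to 198, 2268 and 274 in T and NK cells. Monocyte genes summed to 895, 1612 and 768. The wild-type library thus had the highest sum of neutrophil and basophil genes in members and in T and NK cells alike, but not in the pro-B gate, where neutrophil genes summed to 1006, 4419 and 10580 plain CPM and basophil genes to 768, 359 and 29.3; the part of other cells' RNA in the lower calls was not tested. Dntt, the enzyme that adds bases at heavy chain joints in pro-B cells, also fell. It was at 1.75, 69.1 and 20.7 CPM (log2 change -2.60, SE 0.43, edgeR adjusted p = 2.0e-05), and 96.3% of the wild-type UMIs came from 5 of 249 cells. In dividing members Dntt passed, at 0, 90.3 and 0 CPM (0, 50 and 0 UMIs, edgeR adjusted p = 0.00026). In resting members it did not pass (edgeR adjusted p = 0.307). T and NK cells held Dntt at 96.5, 102 and 34.3 plain CPM. Without fusion library 1 the log2 change of Dntt over all members was -1.73, and without fusion library 2 it was -5.18.

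Rag1, which with Rag2 cuts DNA for light chain joining, was at 414, 155 and 273 CPM (log2 change 1.15, SE 0.31, edgeR adjusted p = 0.0334). Both fusion libraries were above wild type, and without fusion library 1 the log2 change was 0.81. In resting members, where light chain joining takes place, Rag1 was at 719, 317 and 426 CPM and did not pass (log2 change 0.85, edgeR adjusted p = 0.396). Rag2 was at 48.9, 29.8 and 69.1 CPM and did not pass (edgeR adjusted p = 0.241). Ms4a1 was at 722, 372 and 719 CPM in all members and did not pass (log2 change 0.95, SE 0.31, edgeR adjusted p = 0.170). It passed in dividing members, at 226, 37.9 and 274 CPM (log2 change 2.71, SE 0.49, edgeR adjusted p = 1.1e-05), but not in resting ones, at 1244, 808 and 1133 CPM (log2 change 0.56, adjusted p = 0.777). Besides Cd36 and Ms4a1, dividing members rose in Lsp1, a leukocyte actin-binding protein, at 504, 110 and 684 CPM, in Klf2, a factor of lymphocyte quiescence and migration, at 461, 143 and 510 CPM, in Hes1, a Notch target, at 115, 27.1 and 118 CPM, and in Rnase6 at 98.2, 16.2 and 139 CPM (edgeR adjusted p = 0.0217 or lower for each). H2-Aa, of MHC class II, fell in dividing members, at 29.9, 110 and 26.1 CPM (edgeR adjusted p = 0.0259). Sums of dividing members lean on their deepest cells. The deepest held 41380, 46189 and 25471 UMIs, against medians of 7371, 6744 and 7120. How the UMIs of these genes spread over the dividing members is not given here.

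Rag1 and Ms4a1 marked largely different resting members. Thinned to 2000 UMIs, which left 87, 148 and 89 resting members, both genes were found together in 19.5% (95% interval 11.8 to 29.4), 6.76% (3.29 to 12.1) and 12.4% (6.33 to 21.04). In each library this was below the product of the shares of the genes taken singly, which was 30.4%, 15.6% and 24.1%. Members with neither were 9.20% (4.05 to 17.3), 27.7% (20.7 to 35.7) and 13.5% (7.17 to 22.4), highest in wild type and with an interval apart from that of fusion library 1 but not of fusion library 2. The unthinned shares with neither were 8.74%, 20.97% and 10.7%. Members with Rag1 only were 35.6%, 32.4% and 31.5%, and those with Ms4a1 only 35.6%, 33.1% and 42.7%.

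**Figure D4:**
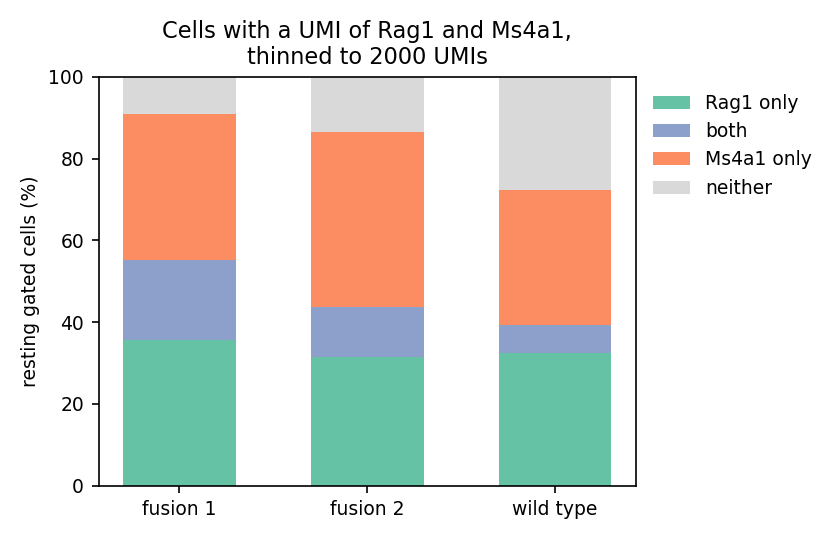
Stacked bars give the percent of resting members (y axis) with a UMI of Rag1 only, both genes, Ms4a1 only or neither, in cells thinned to 2000 UMIs, 1 bar per library. Neither gene was found in 27.7% of wild-type cells and in 9.20% and 13.5% of fusion cells, and both in 6.76% against 19.5% and 12.4%.

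Other markers differed between cells with Rag1 only and cells with Ms4a1 only, in the same direction in every library (unthinned counts). Il7r, the receptor for the growth factor of early B cells, was found in 67.6%, 54.5% and 65.7% of cells with Rag1 only and in 11.8%, 6.25% and 7.69% of those with Ms4a1 only. Il2ra (CD25), a marker of small pre-B cells, fell likewise from 54.1%, 51.5% and 51.4% to 11.8%, 7.81% and 12.8%. Cd74, the invariant chain of MHC class II, went the other way, from 24.3%, 37.9% and 22.9% to 94.1%, 82.8% and 94.9%. The median of light chain UMIs (Igkc, Iglc1, Iglc2 and Iglc3 together) went from 14, 10.5 and 13 to 51.5, 36.5 and 53. So the gate held a pre-B end and an immature B end in each genotype. The genes that rose differed in where they lay. Rilpl2 was found in 48.6%, 6.06% and 54.3% of cells with Rag1 only and in 38.2%, 7.81% and 38.5% of cells with Ms4a1 only. Cd36 was found in 8.11%, 0 and 8.57% of cells with Rag1 only (the 0 is of 66 wild-type cells) and in 26.5%, 4.69% and 35.9% of cells with Ms4a1 only, so it was more frequent at the immature B end in each library. Ltb leaned the same way, from 21.6%, 19.7% and 37.1% to 64.7%, 42.2% and 76.9%. These classes hold 34 to 66 cells and are described, not tested.

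For some immunoglobulin genes a few cells held most of the UMIs of a library. Igkc, the kappa constant region, was at 42824, 15752 and 4258 CPM over all members, and 5 cells held 92.6% of it in fusion library 1 and 81.9% in wild type, but 20.4% in fusion library 2. In resting members Igkc was at 6345, 5353 and 6562 CPM, with a log2 change of 0.27 that did not pass (edgeR adjusted p = 0.945). Ighm, the mu heavy chain, was at 4218, 9124 and 5446 CPM over all members, where 1 wild-type cell held 32.3% of the wild-type UMIs, and at 6487, 7390 and 6626 CPM in resting ones. Jchain was called higher over all members at 6751, 822 and 589 CPM, and without fusion library 1 its log2 change was -0.48. Iglc2, a lambda constant region, was at 1370, 386 and 4323 CPM over all members, with 78.6% of the UMIs of fusion library 2 in 1 cell. In resting members it was at 1617, 747 and 1666 CPM (log2 change 1.14, SE 0.32, edgeR adjusted p = 0.0398), while Iglc1 was at 1320, 2426 and 2411 CPM and Iglc3 at 1842, 1119 and 1278 CPM, neither called. The lambda constant genes are near-identical, so reads split among them are uncertain. Counted per cell, lambda exceeded kappa in 33.98%, 30.1% and 36.9% of resting members.

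Few genes on the lists of the pathway passed. Over all 7494 genes tested 1.01% passed, so low counts do not show that a list was unchanged. Among 16 genes of V(D)J recombination tested, Rag1 rose and Dntt fell, and 10 of them were lower in both fusion libraries; over all 7494 genes 32.0% were lower in both and 32.8% higher in both. Of 31 genes of B cell receptor signalling 0 passed (median log2 change 0.04). Of 40 transcription factors of the lineage only Klf3 passed: Pax5, which keeps B cell identity, was at 384, 437 and 415 CPM, and Ebf1, which starts it, at 1745, 2049 and 2600 CPM. Of 24 genes of interleukin 7 signalling and survival only Socs2 passed, and Il7r itself was at 227, 278 and 266 CPM. Of 30 genes of homing and maturation Cd180 and Ltb rose, and 15 were higher in both fusion libraries. Of 10 MHC class II genes 0 passed. Of 34 genes of G2 and mitosis 0 passed, yet 31 were lower in both fusion libraries (median -0.45). In dividing members alone 24 of the 34 were lower in both (median -0.26), against 30.3% of the 4817 genes tested there. In resting members the median of the 9 tested was -0.09. Of 30 genes of S phase 0 passed, and 20 were lower in both fusion libraries (median -0.29). What these values rest on was not tested. Of 22 immediate early genes Dusp1 fell and 12 were lower in both fusion libraries, and of 15 interferon genes Ly6a fell. Of 21 acetyltransferases and fusion parents 0 passed, and of 16 heat shock genes 0 passed.

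Against the neighbouring gates the members differed in many genes, as the gates were built to make them; these counts are a description from which nothing is read. Against pro-B cells 1553 of 6776 genes (22.9%) passed and against mature B cells 62 of 6854 (0.905%). Members stood above pro-B cells in Cd74 (1256, 1017 and 1351 against 10.9, 7.72 and 8.21 CPM), Ms4a1 (739, 383 and 743 against 25.5, 3.09 and 35.6 CPM) and Il2ra (127, 94.8 and 154 against 10.9, 6.18 and 10.9 CPM). They stood below them in Dntt, in Lef1, a factor of Wnt signalling (21.5, 42.2 and 32.1 against 299, 419 and 183 CPM), and in Bfsp2 (33.998, 56.2 and 42.8 against 251, 238 and 276 CPM). Members stood above mature B cells in Rag1 (422, 158 and 279 against 164, 75.3 and 112 CPM) and below them in H2-Eb1 (37.4, 52.9 and 33.6 against 515, 556 and 233 CPM), H2-Aa and Bank1, an adaptor of B cell receptor signalling.

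The genes that rose in the members were not shown to be particular to them. In plain CPM, Cd36 was at 41.0, 7.27 and 42.6 in the pro-B gate and at 67.9, 7.71 and 89.6 in the mature B gate. Rilpl2 was at 119, 42.2 and 197 in the pro-B gate and at 294, 30.8 and 143 in the mature B gate, and Socs2 at 168, 37.8 and 141 in the pro-B gate and at 26.4, 0.857 and 16.3 in the mature B gate. In each of these gates both fusion libraries were above wild type. The fusion effect on these 3 genes did not pass a test of difference between members and pro-B cells (log2 differences of 1.49, SE 0.94, for Cd36, of 0.35, SE 0.42, for Rilpl2 and of 0.38, SE 0.55, for Socs2, edgeR adjusted p = 0.871, 0.958 and 0.980) or mature B cells (0.61, SE 0.78, -0.51, SE 0.58, and -1.98, SE 1.19, each with an adjusted p of 1). Over all genes the effect differed for 37 of 8127 (0.455%) between members and pro-B cells and for 1 of 8097 (0.0124%), Jchain, between members and mature B cells.

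**Figure D5:**
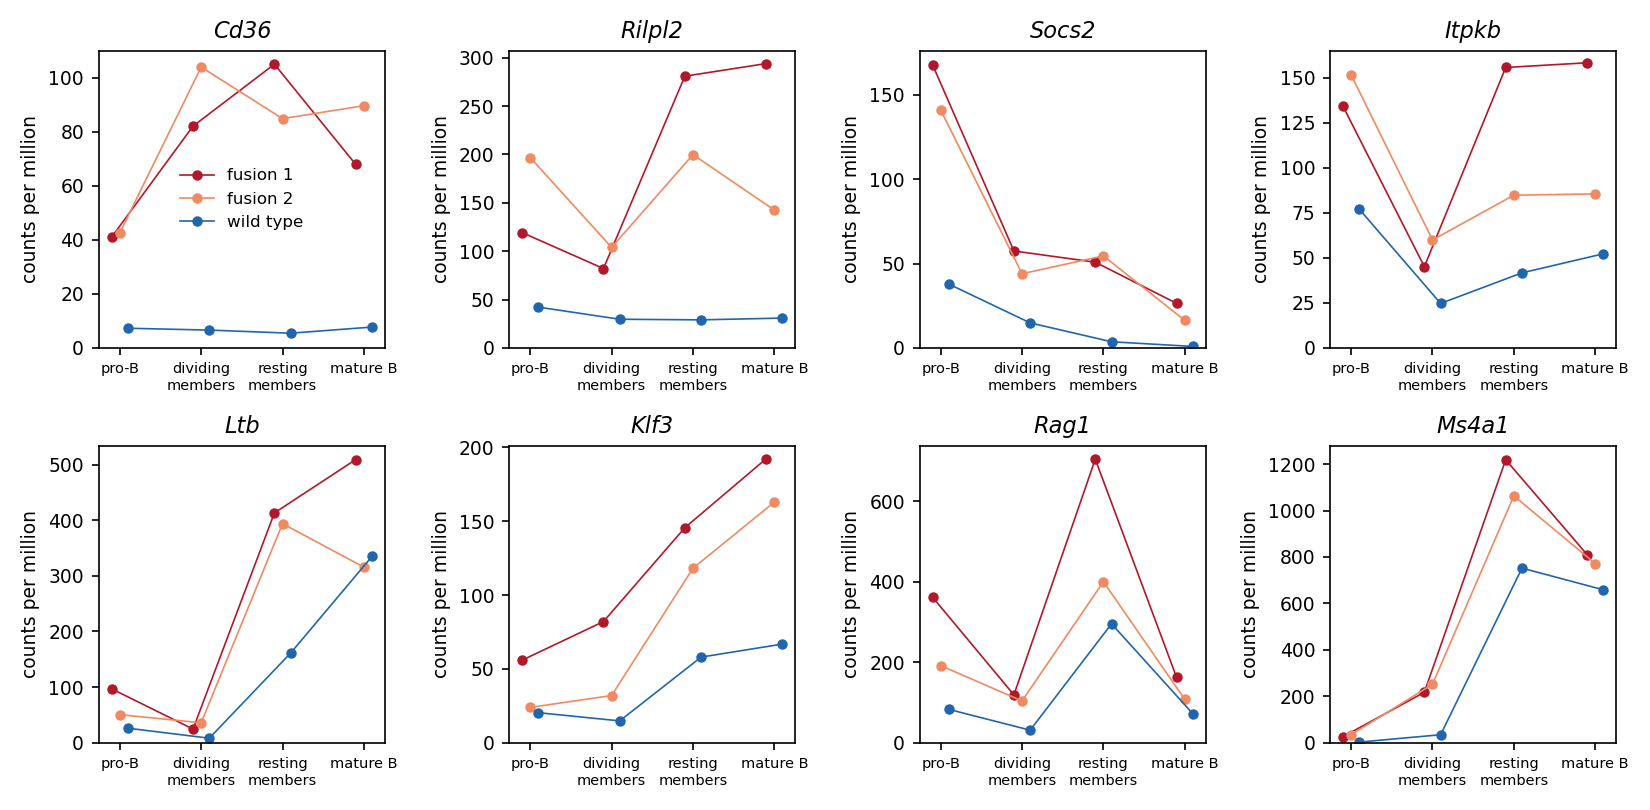
Plain CPM (y axis) of 8 genes, 1 panel each, in pro-B gate cells, dividing members, resting members and mature B gate cells (x axis), 1 point per library. Cd36, Rilpl2 and Socs2 stand higher in both fusion libraries than in wild type in all 4 populations; for Cd36 in resting members the plain values are 104.9, 5.44 and 84.8 CPM.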

How the data were processed

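The deposited values are raw counts of UMIs, by gene and by barcode, from 10x 3' version 3.1 libraries. The submitters' processing notes name GRCm38, Cell Ranger 5.0.1 and bcl2fastq 2.20.0.422 for the authors' steps; the file headers name Cell Ranger 5.0.0. The authors' cell calls were taken as deposited (9057, 9354 and 8122 barcodes).

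A kept cell had 1000 UMIs or more, 400 genes or more and no more than 10% of UMIs from mitochondrial genes. Doublets predicted with scrublet in scanpy 1.11.5 (expected rate 0.06) stayed in, and their removal was an alternative. Counts were summed per library and population and tested with edgeR 4.0.16 in R 4.3.3 (quasi-likelihood, TMM, filterByExpr, Benjamini-Hochberg adjusted p under 0.05 over all genes tested), where the spread of the fusion pair gives the only residual degree of freedom and wild type is assumed to vary alike. The 8 gate genes got no test. The difference of fusion effects between gates was an interaction term in a fit with the library as a block, also with 1 residual degree of freedom. SE is the log2 change divided by the root of F. DESeq2 1.42.0 was an alternative. Shares have exact 95% intervals (Clopper-Pearson, scipy 1.17.1), which, like the count intervals, cover counting error only. Thinning drew 2000 UMIs per cell and left out shallower cells. Scripts were tested on simulated data. Promoter sequences are RefSeq's; exons and positions are from GENCODE M21.

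Members, gene lists and alternatives were chosen with earlier results of these data known. Named genes were up to 12 called genes per direction by size of change, with a mean of at least 20 CPM, both fusion libraries on 1 side, and, in the group where the gene is higher, a level at least 20% of that in all kept cells. The list genes, the genes of resting and dividing members and the counts of the cells that hold a gene were added after values were seen. For the stage comparisons up to 8 genes per direction with at least 50 CPM were eligible.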

Additional observations from a re-analysis of the deposited data

Results flagged for a closer look

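The fusion effect differed between members and pro-B gate cells, by an edgeR interaction term (adjusted p of 0.0320 or lower), for 13 genes named by rule or list. The values are the log2 fusion effect in members minus that in pro-B cells. Those of immunoglobulin and plasma cell genes were 8.86 for Igha, 8.88 for Iglc2, 6.29 for Iglc1, 7.20 for Jchain and -0.70 for Ighm. Iglc1, Iglc2 and Jchain were at 0 in both fusion pro-B libraries and at 16.8, 12.2 and 7.62 CPM in the wild-type one, so their fitted values depend on the prior count and measure no size. Igha was at 7.06, 3.05 and 2.68 CPM in pro-B cells, and its value in members came from fusion library 1, as did most of that of Jchain. Genes of other cell types gave -5.68 for Chil3, -7.24 for Fcnb, -2.41 for Mcpt8, 1.85 for Mmp8, -0.94 for S100a8 and -0.65 for S100a9. Fcnb was at 0 in pro-B cells of fusion library 1 and in members of fusion library 2, so its value rests in part on counts of 0.

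Dntt gave -3.01: in pro-B cells, where it belongs, it was at 660, 465 and 573 CPM in fusion library 1, wild type and fusion library 2, against 1.76, 69.9 and 21.1 CPM in members. Ly6d, a surface protein of B lineage precursors, gave -2.03, with 371, 47.2 and 327 CPM in pro-B cells and 2459, 1437 and 2719 CPM in members. In both gates the fusion libraries stood above wild type for Ly6d, and the pro-B values rest on 26, 58 and 32 cells.

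Between members and mature B cells the effect differed for Jchain alone among 8097 genes (9.48, edgeR adjusted p = 0.0044). Jchain was at 0 in the mature B gate of fusion library 1. In the members of each library 5 cells held 99.7% or more of its UMIs, so this value rests on few cells and measures no size.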

How the results depend on the processing

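The ratio of member shares of kept cells ranged from 0.516 to 0.565 with 1 fusion library left out. Without cells holding more than 1 UMI of a single gene of other cell types it was 1.77. The ratio of B lineage shares was then 3.97, and it was 1.18 to 1.24 with 1 fusion library left out (1.24, intervals apart, without fusion replicate 2). The 76 genes called in members (31 higher, 45 lower) became 0 with DESeq2's size factors and 0 with no filter on low counts. They became 4 and 23 with at most 2 and at most 8 surrogate light chain UMIs. Without cells holding other types' genes, which left 38, 18 and 24 members, 8 of 2206 genes passed, 7 higher and 1 lower. Dividing cells gave 24 and DESeq2 gave 4 (61 at an unadjusted p under 0.05). The prior degrees of freedom that edgeR estimated were 90.2 in the fit of all members, 2.03 with DESeq2's size factors and 1.14 with no filter. They were infinite in the fits of resting members, of dividing members and of the difference from pro-B cells. In those fits a gene's own spread did not enter its p-value. A minimum of 30 counts, added after seeing the data, gave 63. Leaving out a library leaves no residual degree of freedom, or no comparison where it is wild type.

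The 1553 genes against pro-B cells became 517 without dividing and plasma cells, 514 with DESeq2 and 932 to 1343 with a library left out. The 62 against mature B cells became 195 with no filter, 111 without doublets, 332 without dividing and plasma cells, 27 with DESeq2 and 5 (without wild type) to 341 (without fusion replicate 1). The 37 differing effects against pro-B cells became 24 without doublets, 82 with at most 2 surrogate UMIs and 0 with DESeq2 (10 unadjusted), and the 1 against mature B cells became 8 with no filter, 14 without doublets and 0 with DESeq2 (10 unadjusted). The cause of these changes was not tested.

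Of 24 genes named by rule, 23 kept their sign under every alternative that gave a value, 2 were called by DESeq2 and 14 with 30 counts. Log2 changes that turned were 0.66 for Ccl6 with equal cell numbers, -1.88 for Igkc and -8.59 for Jchain without doublets, -0.48 for Jchain and -0.55 for Igha without fusion replicate 1 (3.04 and 10.8 without fusion replicate 2), 0.44 for S100a9 without cells holding other types' genes, and 0.11 for Ly6a thinned. Values not called under either setting also turned: 0.57 for Ighm without cells holding other types' genes, 0.03 for Ep300 without fusion replicate 2, and for Igkc -1.89 without fusion replicate 1 and -0.14 in dividing cells. No paired analysis was possible because the groups share only 1 replicate number.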
